A study of Homo sapiens with 2 samples.

Results

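Cleavage factor I and cleavage factor II are the pre-mRNA 3′ end processing complexes whose subunits are encoded by NUDT21, CPSF6, CPSF7, PCF11 and CLP1. These 5 genes were taken by name from GENCODE release 44, out of 20033 protein-coding genes in that annotation. For each gene, NUDT21 peaks were collected if they came within 3000 bp of a transcript start (promoter peaks), lay over the rest of the gene (body peaks), or lay up to 1000 bp past its 3′ end. No measured value was used as a rule to choose the genes, but they were chosen with earlier results of these data known. The data were 2 CUT&Tag replicates, which form 1 group, from J.gamma1, a derivative of the Jurkat line of human T-cell acute lymphoblastic leukemia, and the labels name no treatment. In CUT&Tag an antibody, here against NUDT21, guides a transposase to chromatin, which cuts and tags nearby DNA for sequencing. Peaks had been called in each replicate apart, and no sample without the antibody was analysed here. The study's methods describe the replicates as biologically independent, while the labels do not say whether they came from separate cultures. Peak lists hold no expression values with which to check the cell type.

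In cells, cleavage factor I binds UGUA words upstream of polyadenylation sites and helps to decide which site of a transcript is used. NUDT21 (CFIm25) is the subunit that reads UGUA, and CPSF6 (CFIm68) and CPSF7 (CFIm59) are alternative large subunits that connect it to the rest of the machinery. Cleavage factor II is made of PCF11, which binds the tail of RNA polymerase II and promotes termination, and CLP1, an RNA kinase that also takes part in tRNA splicing. The antibody target is thus the product of the first of these genes and the partner of CPSF6 and CPSF7 in cleavage factor I.

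Every gene of the set carried a promoter peak in both replicates (5 of 5). The same was true of 57.0% of all protein-coding genes, with 69.8% in replicate 1 alone and 57.9% in replicate 2 alone. No gene of the set had a gene-end peak (with its summit no more than 1000 bp from the 3′ end, and not a promoter peak), and no peak lay past a 3′ end, in either replicate. Among all protein-coding genes, 16.3% had a gene-end peak in at least 1 replicate and 7.33% in both. A body peak in both replicates was found at CPSF7 alone (1 of 5, against 28.6% of all protein-coding genes). In all there were 14 peaks, 8 in replicate 1 and 6 in replicate 2.

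**Figure D1:**
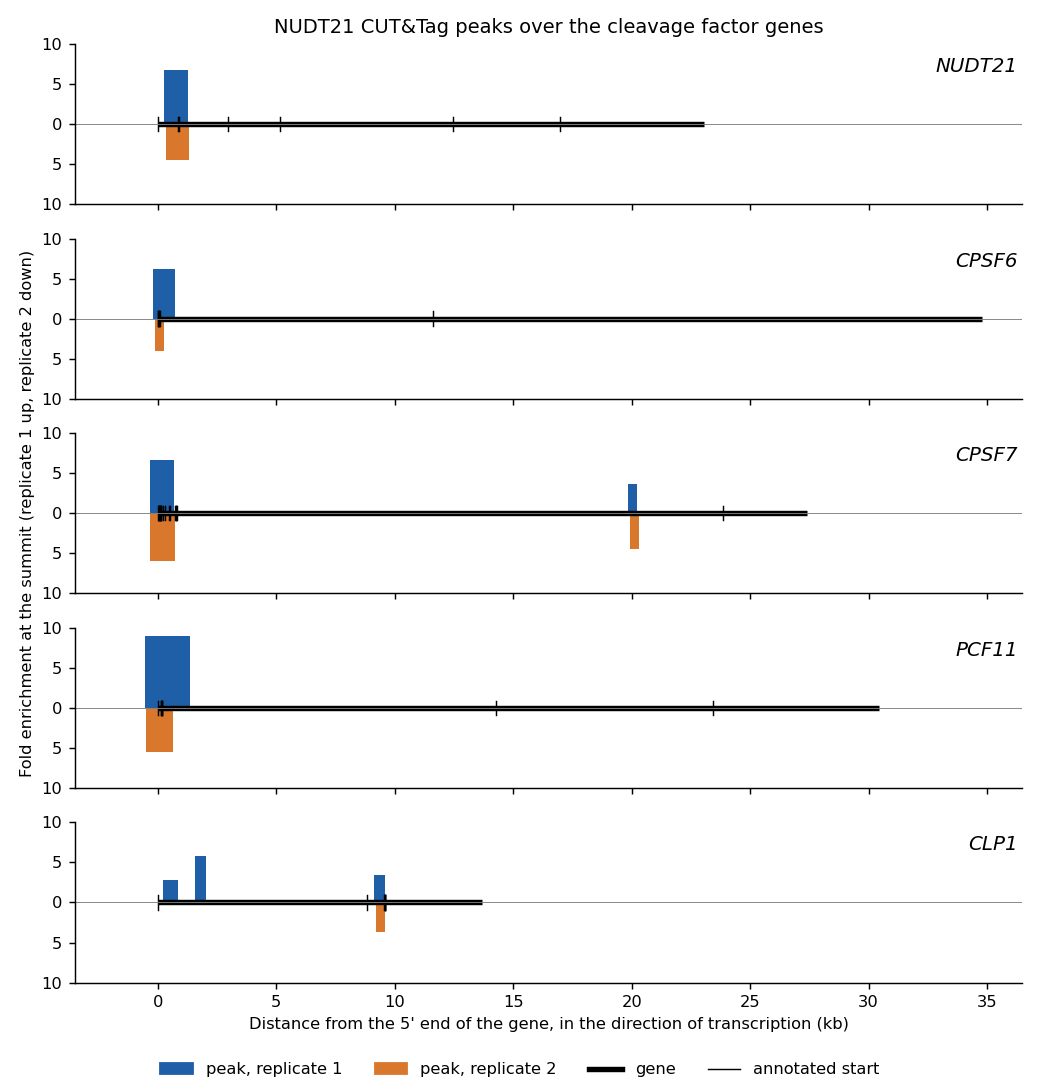
Peaks over the 5 genes, drawn from the 5′ end of each gene in the direction of transcription (kb), with fold enrichment upward for replicate 1 and downward for replicate 2 and ticks at annotated starts. Peaks stand at starts in all 5 genes, the only body peaks are the pair inside CPSF7, and CLP1 has 3 peaks in replicate 1 against 1 in replicate 2.

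The DNA at these promoters is shown first, because the promoters hold 12 of the 14 peaks. Each stretch ends at the last base before the first of the transcript starts that cluster at the RefSeq start. They come from the RefSeq promoter windows (GRCh38.p14, the same coordinates as hg38). Capitals mark the words CCAAT (the NF-Y box) and GGGCGG (the GC box) on either strand, so ATTGG and CCGCCC are the same words read on the other strand, and AACTCCC in CLP1 (part of the element of ZNF143 and THAP11). The NUDT21 stretch is the whole interval between the closest starts of NUDT21 and its opposite neighbour OGFOD1.
NUDT21, chr16:56451352-56451520, minus strand: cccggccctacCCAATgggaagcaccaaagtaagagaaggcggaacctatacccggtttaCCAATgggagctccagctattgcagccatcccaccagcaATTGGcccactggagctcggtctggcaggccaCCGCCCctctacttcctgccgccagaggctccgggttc
CPSF6, chr12:69239319-69239568, plus strand: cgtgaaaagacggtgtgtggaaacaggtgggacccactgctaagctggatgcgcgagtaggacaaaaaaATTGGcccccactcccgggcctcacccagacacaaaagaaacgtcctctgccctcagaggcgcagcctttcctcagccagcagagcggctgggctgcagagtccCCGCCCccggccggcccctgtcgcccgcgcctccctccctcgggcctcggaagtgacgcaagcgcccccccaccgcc
PCF11, chr11:83156881-83156987, plus strand: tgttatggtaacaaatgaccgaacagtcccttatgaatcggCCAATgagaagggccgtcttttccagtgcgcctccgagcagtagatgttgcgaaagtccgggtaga
CLP1, chr11:57657512-57657750, plus strand: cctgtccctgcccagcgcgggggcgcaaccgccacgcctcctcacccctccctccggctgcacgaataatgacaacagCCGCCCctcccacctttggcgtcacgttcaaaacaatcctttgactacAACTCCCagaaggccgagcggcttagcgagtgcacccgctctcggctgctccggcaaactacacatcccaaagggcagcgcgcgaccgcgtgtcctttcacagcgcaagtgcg

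The NUDT21, PCF11 and CLP1 stretches lay wholly inside the peaks of both replicates, and the CPSF6 stretch was covered in part. No stretch overlapped an annotated exon. CPSF7 has only 10 bases, gtccctgcgc, between its most upstream start and the first start of SDHAF2 on the other strand. The 30 bases around that interval are therefore shown in its place, on the strand of CPSF7, and they lay inside both CPSF7 promoter peaks. Capitals mark TGCGCA (the NRF1 core) and CCGGAA (the ETS core). AACTCCC was also found in the NUDT21 window, in an exon of OGFOD1, and the 30 bases around it are set beside those of CLP1.
CPSF7, chr11:61430019-61430048, minus strand: aaggtgcgtcccTGCGCAtgCCGGAAgtgg
NUDT21, chr16:56451533-56451562, minus strand: tgagggtactgcAACTCCCggcatgtcccc
CLP1, chr11:57657626-57657655, plus strand: tcctttgactacAACTCCCagaaggccgag

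Word counts were taken over windows of 300 bases, from 250 before to 50 after the RefSeq start, on both strands, and set beside 15345 protein-coding windows. All 5 genes had a window. GGGCGG was present in 5 of 5 windows and in 59.2% of all windows, with 5 copies at CPSF7. CCAAT was present in 3, with 3 copies at NUDT21, 2 at PCF11 and 1 at CPSF6, and in 36.6% of all windows. CCGGAA was present in 3, with 4 copies at CPSF7 and 1 each at NUDT21 and CLP1, and in 23.1% of all windows. TGCGCA occurred at CPSF7 only among the 5 and in 10.8% of all windows. TATAAA (the TATA box) occurred in 0 of 5 and in 9.63% of all windows. AACTCCC occurred at NUDT21 and CLP1 and in 5.01% of all windows, and this word was chosen after the sequences had been read. The words overlap in no printed stretch, and a match describes letters, not a bound site.

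Base composition separated the promoters from each other. GC content was 72.3% at CPSF7, 68.3% at CPSF6, 61.3% at CLP1, 59.7% at NUDT21 and 59.3% at PCF11, around a median of 63.0% for all windows. The ratio of observed to expected CpG was 1.07 at CPSF7, 1.03 at CLP1 and 0.950 at PCF11, which exceeded 94.6%, 91.0% and 80.9% of windows. CPSF6 had 0.750 and NUDT21 had 0.609, below the median of 0.767. The order by composition was not that by peak height: PCF11, with the lowest GC content of the 5, had the highest fold of replicate 1.

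Each deposited peak carries a fold, the ratio of its fragment pileup plus 1 to the control level plus 1 at the summit, where the control level is the background that the peak caller used. The lists carry marks of a control library of another depth, with the pileup of replicate 1 scaled by 0.921 and control levels in steps of 1.00 in replicate 1 and 0.557 in replicate 2 at 52.4% and 51.6% of peaks. The methods describe no such library, so whether the fold is relative to a control library or to the same library is not known. The number of fragments and the control level were recovered from the fold and the p-value. On chromosomes 1 to 22, X and Y the list of replicate 1 held 92722 peaks, with a median fold of 3.95 and a median of 30 fragments. That of replicate 2 held 66671, with 4.23 and 20. Replicate 1 was 1.95 times as deep if both were called against the same control. Read totals were not used here. Intervals in brackets are exact 95% Poisson intervals on the fragments with the control held fixed, and they cover counting error only. Ranks are given as the share of the peaks of the same list with a lower fold.

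NUDT21 (ENSG00000167005.14, chromosome 16, 56429133 to 56452199, minus strand, 7 transcripts), the gene of the antibody target, had 1 promoter peak per replicate. In replicate 1 it spanned 56450930 to 56451966, and its fold was 6.74 [5.22 to 8.58] from 64 fragments over a control level of 7.89. In replicate 2 it spanned 56450899 to 56451852, and its fold was 4.49 [3.10 to 6.32] from 31 fragments over 6.13. The peaks shared 923 bp, but their summits were 490 bp apart, the widest gap of the 5 genes. The replicate 1 summit lay in a coding exon of NUDT21, 176 bp inside the nearest start. The replicate 2 summit lay in a coding exon of OGFOD1 and in an intron of NUDT21. OGFOD1, which encodes a hydroxylase of a ribosomal protein, starts on the other strand 170 bp away. Both peaks spanned the closest starts of both genes, so the signal cannot be given to either gene. The most upstream NUDT21 start, at 56452199, lay outside both peaks. The folds were higher than 90.6% of replicate 1 peaks and 57.4% of replicate 2 peaks.

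CPSF6 (ENSG00000111605.18, chromosome 12, 69239569 to 69274358, plus strand, 8 transcripts) was the only gene of the set with no other annotated start within 3000 bp of its own, so its peaks had no neighbour to share. In replicate 1 the peak spanned 69239350 to 69240274, and its fold was 6.21 [4.63 to 8.17] from 49 fragments over 6.43. In replicate 2 it spanned 69239437 to 69239830, and its fold was 4.08 [2.57 to 6.197] from 20 fragments over 4.15, and it lay wholly inside the first. Summits were 141 bp apart, in an intron in replicate 1 and in coding sequence in replicate 2, at 164 and 23 bp inside the nearest start. The folds were higher than 87.5% and 45.3% of their lists, so CPSF6 was above the median of the peaks in replicate 1 and below it in replicate 2.

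CPSF7 (ENSG00000149532.16, chromosome 11, 61402641 to 61430031, minus strand) has 26 transcripts from 22 starts, the most of the set. Its promoter peaks were nearly the same interval in both replicates, from 61429339 to 61430375 and from 61429332 to 61430375. The fold was 6.602 [5.18 to 8.30] from 71 fragments over 9.06 in replicate 1 and 5.94 [4.21 to 8.16] from 36 fragments over 5.23 in replicate 2. Summits were 36 bp apart, both in an intron of CPSF7. These folds exceeded 89.8% and 84.0% of the peaks of each list, the closest pair of ranks for the highest promoter peak of a gene in the set. SDHAF2, which encodes an assembly factor of succinate dehydrogenase, starts 11 bp away on the other strand. A longer protein-coding gene without a symbol (ENSG00000256591) also starts on that strand, 15 bp from an inner start of CPSF7. An unclassified transcript (ENSG00000279632) starts on the strand of CPSF7, 1910 bp from its nearest start. The promoter peaks therefore cannot be given to CPSF7 or SDHAF2.

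**Figure D2:**
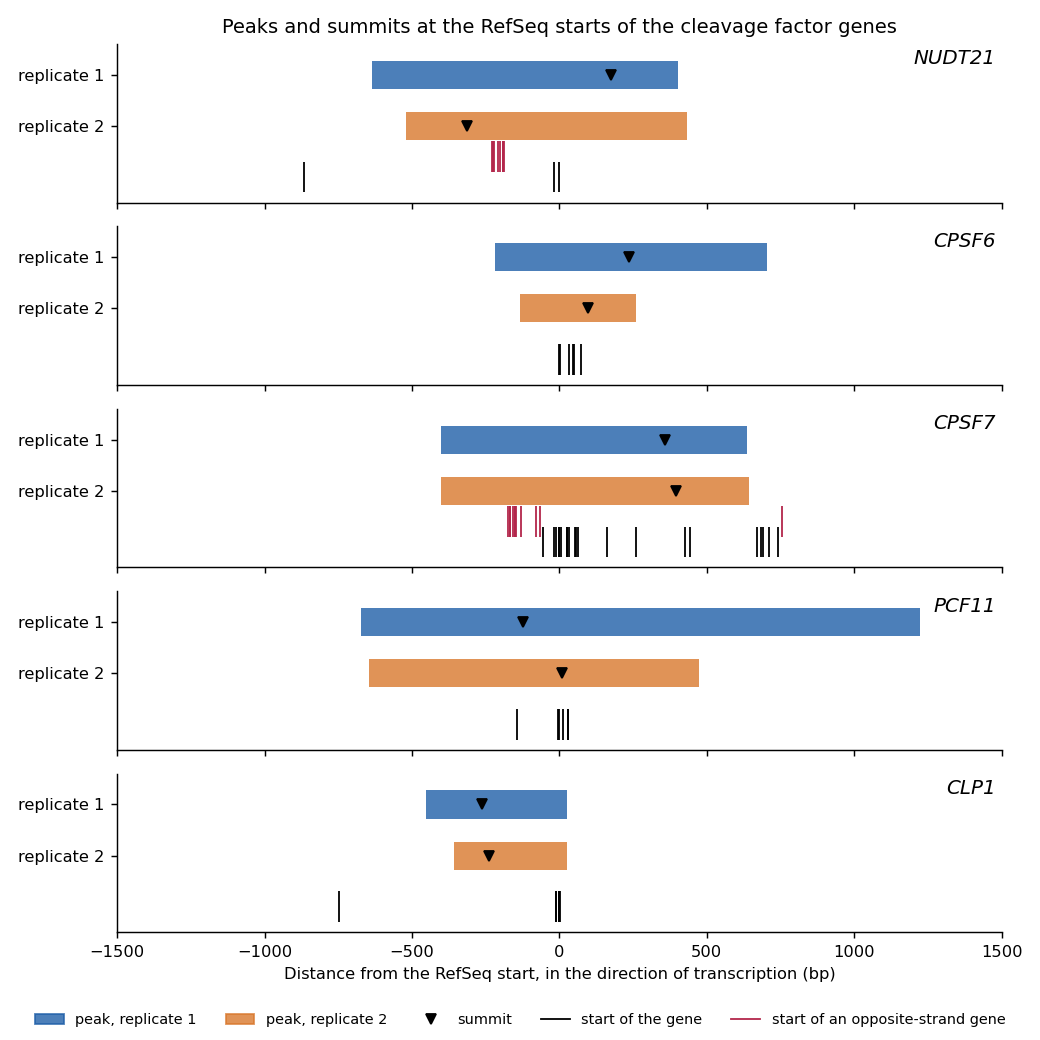
Peaks (bars) and summits (triangles) of both replicates around the RefSeq start of each gene, in bp in the direction of transcription, with starts of the gene in black and of opposite-strand genes in red. Summits of the replicates lie 24 to 141 bp apart at 4 genes and 490 bp apart at NUDT21, on either side of the starts of OGFOD1.

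CPSF7 also had the only body peaks. In replicate 1 the peak spanned 61409788 to 61410167, and its fold was 3.70 [2.31 to 5.67] from 19 fragments over 4, and in replicate 2 it spanned 61409738 to 61410086, and its fold was 4.49 [2.59 to 7.33] from 14 fragments over 2.34. Both summits lay in an intron, at -7266 and -7207 bp from the 3′ end (negative values lie inside the gene). These were the lowest fragment counts of all 14 peaks, and both were under the medians of their lists. The sequence under these peaks was not unique in the genome.

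Of the 20-base words of the body peak, 69.0% in replicate 1 and 73.0% in replicate 2 occurred more than once in hg38, counting both strands. Words with 100 or more copies made up 24.9% and 25.8%, and the commonest had 79663 copies. In the promoter peaks, at most 7.73% of words occurred more than once (CPSF6, replicate 2). The next peaks past the 3′ end of CPSF7, beyond the limit of 1000 bp, were more repetitive. These began at 61399292 in both lists. The replicate 1 peak ended at 61399657 and had 16 fragments and a fold of 4.403, and that of replicate 2 ended at 61399652 and had 13 fragments and a fold of 5.41. Their edges were 2984 and 2989 bp past the end, and 94.8% and 94.7% of their words occurred more than once. How reads that match several places were handled is not given in the sources used here, and the part of such reads in these peaks was not tested.

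PCF11 (ENSG00000165494.12, chromosome 11, 83156988 to 83187451, plus strand, 8 transcripts) had the highest and the broadest peak of the set. In replicate 1 it spanned 83156457 to 83158355, a length of 1899 bp, and its fold was 9.04 [7.35 to 11] from 97 fragments over 9. In replicate 2 it spanned 83156484 to 83157604, a length of 1121 bp, and its fold was 5.46 [3.79 to 7.64] from 32 fragments over 5.05, and it lay wholly inside the first. Summits were 132 bp apart in annotated UTR, at 19 and -4 bp from the nearest start (negative values lie upstream). The folds were higher than 96.5% and 77.9% of the lists. No start on the other strand lay within 3000 bp. The only neighbour was a noncoding RNA (ENSG00000254676) that starts inside the gene on the same strand, 278 bp from an inner PCF11 start, and no peak was called there.

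CLP1 (ENSG00000172409.7, chromosome 11, 57648188 to 57661865, plus strand, 7 transcripts) had its highest replicate 1 peak away from its RefSeq start. This peak spanned 57649759 to 57650202, and its fold was 5.80 [4.24 to 7.77] from 43 fragments over 6, higher than 84.1% of the list. The summit was 1868 bp away from the nearest CLP1 start, the farthest of any promoter peak here. It covered the start at 57649944 of YPEL4, a gene of the yippee-like family on the other strand. A weaker replicate 1 peak spanned 57648393 to 57649051, and its fold was 2.82 [1.89 to 4.05] from 27 fragments over 8.18, higher than 14.3% of the list, with its summit in a UTR exon of YPEL4. Neither was touched by a replicate 2 peak. MIR130AHG, the host gene of miR-130a, also runs through this stretch on the strand of CLP1, with a start 158 bp from the upstream start of CLP1, so this signal cannot be given to CLP1 alone.

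The peak at the RefSeq start of CLP1 lay beyond YPEL4 and MIR130AHG and was called in both replicates. It spanned 57657311 to 57657788 in replicate 1, where its fold was 3.38 [2.56 to 4.39] from 54 fragments over 14, and 57657404 to 57657788 in replicate 2, where it was 3.64 [2.45 to 5.24] from 27 fragments over 6.68. Summits lay 24 bp apart, at -253 and -229 bp from the nearest start. The folds were higher than 31.6% and 29.7% of the lists, while the fragment counts were above the medians of 30 in replicate 1 and 20 in replicate 2. The control levels were the highest of any peak of the set in each replicate. What raised the control level there was not tested.

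**Figure D3:**
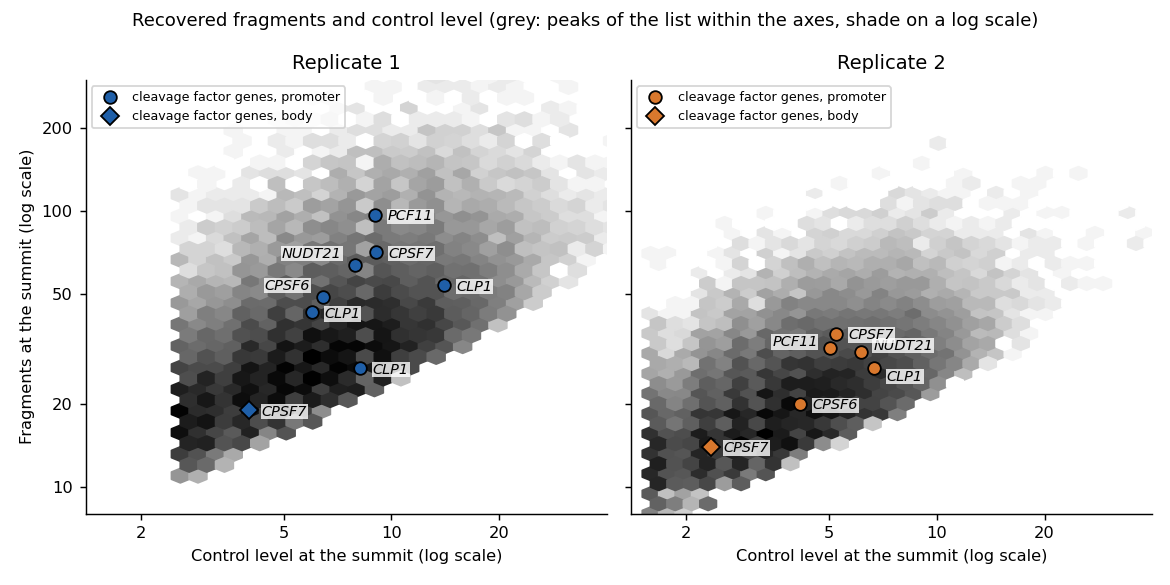
Fragments recovered at the summit against the control level, both on log scales, for the 14 peaks (points) and the peaks of each whole list (grey cells). The CLP1 points at control levels of 14 and 6.68 lie farthest right among the 5 genes in each replicate, and the CPSF7 body peaks (diamonds) are lowest with 19 and 14 fragments.

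Across the set, 12 of the 14 peaks were touched by a peak of the other replicate, 6 of 8 in replicate 1 and 6 of 6 in replicate 2. Over the whole lists the shares were 56.4% of replicate 1 peaks and 85.7% of replicate 2 peaks. Both untouched peaks belonged to CLP1. A start on the other strand within 1000 bp was annotated for 3 of 5 genes, NUDT21, CPSF7 and CLP1, and for 36.8% of all protein-coding genes. At CLP1 it was a YPEL4 start, 611 bp from the upstream CLP1 start. None was annotated that near the RefSeq start of CLP1, where its peak shared by both replicates lay. Promoter peaks had more fragments than the median of the list in 6 of 7 cases in replicate 1 and 4 of 5 in replicate 2. Their control levels were also above the median in 6 of 7 and 5 of 5. The shares over all promoter peaks were not computed. At the highest promoter fold of all protein-coding genes, the median was 51.0 fragments in replicate 1 and 28.0 in replicate 2. NUDT21 (64 and 31), CPSF7 (71 and 36) and PCF11 (97 and 32) were above both medians. CPSF6 (49 and 20) and CLP1 (43 and 27) were below both.

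**Figure D4:**
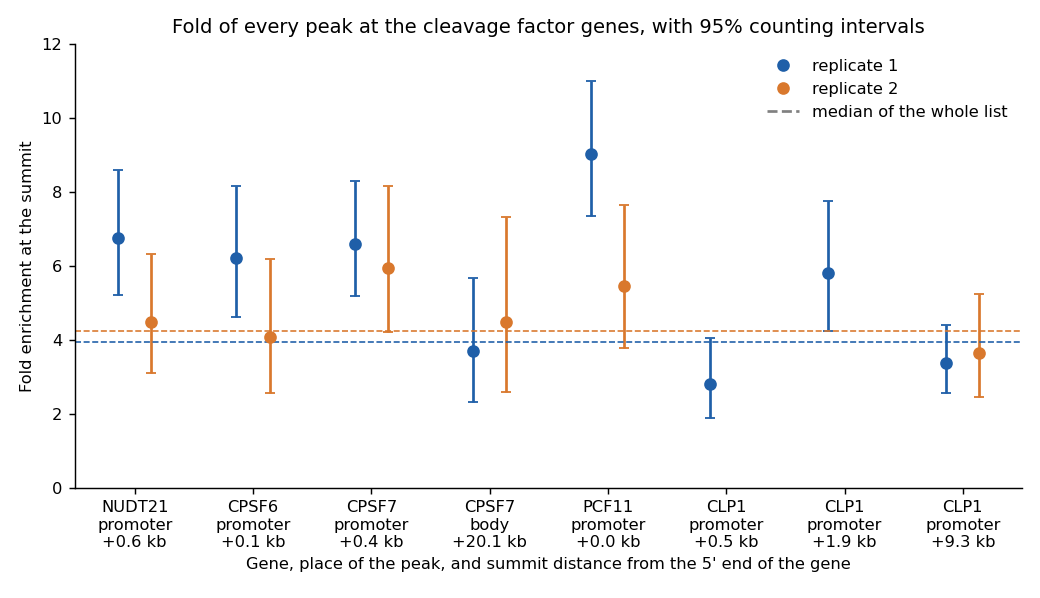
Fold enrichment at the summit of every peak of the 5 genes (points) with exact 95% Poisson counting intervals (bars), in replicate 1 (blue) and replicate 2 (orange), and the median of each list (dashed). Promoter folds run from 2.82 to 9.04, and at each of the 6 places with a peak in both replicates the intervals overlap. The share of overlap over the whole lists was not computed.

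The highest promoter fold of each gene was then ranked. In replicate 1 the order was PCF11, NUDT21, CPSF7, CPSF6 and CLP1, and in replicate 2 it was CPSF7, PCF11, NUDT21, CPSF6 and CLP1. Of 10 pairs of genes, 8 had the same order in both lists. The exceptions were CPSF7 with PCF11 and CPSF7 with NUDT21. CPSF6 and CLP1 came last in that order in both replicates, but neighbouring genes had overlapping counting intervals in each list. With 2 replicates in 1 group there is no test of these differences.

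Every gene had a higher fold in replicate 1 than in replicate 2 (5 of 5, against 69.5% of the protein-coding genes with promoter peaks in both). The ratio was 1.5 at NUDT21, 1.52 at CPSF6, 1.11 at CPSF7, 1.66 at PCF11 and 1.59 at CLP1, with a median of 1.52, while the median over all such genes was 1.13. For CLP1 the ratio sets peaks at different places side by side, since at its RefSeq start replicate 2 was higher, 3.64 against 3.38, a ratio of 0.929. With that peak the fold was higher in replicate 1 at 4 of 5 genes. Counting intervals of the highest promoter folds overlapped between replicates in all 5 genes, at CLP1 between peaks at different places. The share of all protein-coding genes with such overlap was not computed. The ranks were also lower in replicate 2. The median share of the list exceeded by the highest promoter peak was 89.8% in replicate 1 and 57.4% in replicate 2, while for all protein-coding genes with a promoter peak it was 82.4% and 77.9%. The median highest fold was 6.602 and 4.49 in the set and 5.64 and 5.45 over all genes.

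Among protein-coding genes with a promoter peak, PCF11 exceeded 79.3% in replicate 1 and 50.03% in replicate 2, and CPSF7 exceeded 61.6% and 58.0%. NUDT21 exceeded 63.1% and 32.3%, and CPSF6 57.1% and 24.1%. CLP1 exceeded 52.1% in replicate 1 through its peak at the YPEL4 start, and 14.4% through the peak at its own RefSeq start. The 14.4% sets 1 start of CLP1 beside the highest fold of other genes over all their starts, which lowers its rank. In replicate 2, where the RefSeq-start peak was the only CLP1 peak, it exceeded 15.7%. In replicate 1 NUDT21, CPSF6, CPSF7 and PCF11 thus stood above the middle of genes with a promoter peak. CLP1 stood below it only when its RefSeq-start peak was used in place of its highest. In replicate 2 CPSF7 stood above the middle, PCF11 at it and NUDT21, CPSF6 and CLP1 below it.

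**Figure D5:**
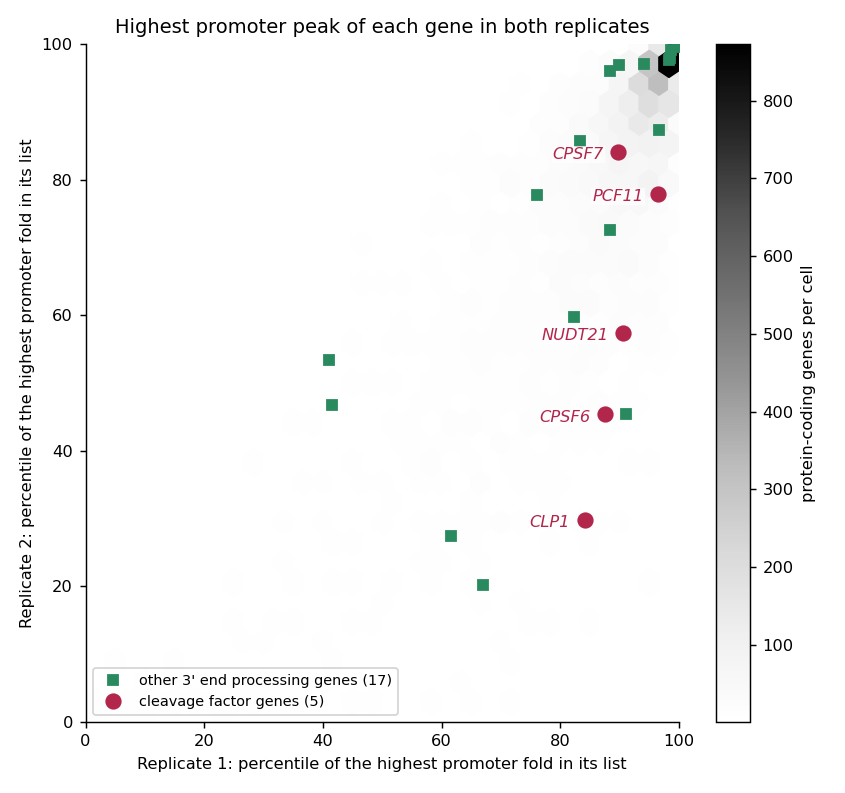
For each gene with a promoter peak in both replicates, the percentile of its highest promoter fold within the list of replicate 1 (x axis) and of replicate 2 (y axis), with all protein-coding genes as grey cells. The 5 cleavage factor genes (red) lie at 84.1 to 96.5 in replicate 1 (CLP1, the lowest, through its peak at the YPEL4 start, and at 31.6 with its RefSeq-start peak) and spread from 29.7 to 84.0 in replicate 2, and the 17 other 3′ end processing genes (green) reach down to 41.1 in replicate 1 and 20.2 in replicate 2.

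For comparison, 22 other genes of 3′ end processing were examined, covering the cleavage and polyadenylation specificity factor, the cleavage stimulation factor, poly(A) polymerases and termination factors. Promoter peaks were found at 20 in replicate 1, 18 in replicate 2 and 17 (77.3%) in both. A gene-end peak in both replicates was found at 0 of the 22, beside 7.33% of all protein-coding genes. Unlike the set, this list did hold gene-end peaks in 1 replicate only. A body peak in both replicates was found at 7 of the 22, beside 28.6% of all protein-coding genes. The fold was higher in replicate 1 at 9 of the 17. Their median highest promoter fold was 6.05 in replicate 1 and 5.78 in replicate 2, at 85.9% and 81.7% of the lists. The median of the cleavage factor genes was thus higher than that of this list in replicate 1 and lower in replicate 2. No test of the difference was made.

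The highest of this list was SSU72, a phosphatase of the RNA polymerase II tail, at 99.8% of replicate 1 and 99.6% of replicate 2. The lowest was CSTF3 in replicate 1, at 17.8%, and CSTF2 in replicate 2, at 7.47%, both subunits of the cleavage stimulation factor. A promoter peak in both replicates was lacking at 5 genes. CSTF3, the poly(A) polymerase gene PAPOLG and SCAF8, which suppresses early termination, had a promoter peak in replicate 1 only. CSTF2 had one in replicate 2 only, and its paralogue CSTF2T had none.

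By the pair of list percentiles over 2 replicates, the gene of this list nearest to CPSF6 was SCAF4, at a distance of 3.64 percentile points. CPSF7 was nearest to CPSF2 (6.58), NUDT21 to the termination exonuclease XRN2 (8.54) and PCF11 to CSTF1 (9.43). CLP1 was also nearest to SCAF4, at 17.1 points, the least close match of the 5, and its replicate 1 percentile there is that of the peak at the YPEL4 start. The percentiles were 91.1 and 45.3 for SCAF4, 83.4 and 85.6 for CPSF2, 82.4 and 59.7 for XRN2, and 96.6 and 87.4 for CSTF1.

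TGTA, the DNA form of the word that NUDT21 reads in RNA, was looked for on both strands in windows of 201 bp centred on the summits. It was present at 4 of the 14 summits, 3 in replicate 1 and 1 in replicate 2, beside 50.1% and 50.9% of all summits of the lists. These were the NUDT21 promoter peak of replicate 1 with 2 copies, the CPSF7 body peak in both replicates with 1 copy each, and the CLP1 peak of replicate 1 at YPEL4 with the fold of 2.82. At the promoter summits of CPSF6, CPSF7 and PCF11, and at the summits of the RefSeq-start peak of CLP1, it was absent from the window in both replicates. In the 300-base promoter windows, which are placed by the RefSeq start and not by the summit, TGTA was present at 2 of 5 genes, with 3 copies at CLP1 and 1 at CPSF7, and in 51.5% of all windows.

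The 3′ ends, which had no peak, were read for the same word on the transcribed strand. In the last 100 bases of the gene, TGTA occurred at NUDT21, CPSF6, CPSF7 and PCF11, with 2 copies at CPSF7 and 0 at CLP1, and at 49.7% of all protein-coding genes. A polyadenylation signal, AATAAA or ATTAAA, was present at NUDT21, CPSF6, CPSF7 and CLP1, with 2 copies at CLP1 and 0 at PCF11, and at 74.7% of all genes.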

How the data were processed

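Both samples were CUT&Tag libraries of J.gamma1 cells made with an NUDT21 antibody. According to the submitters' processing notes and the study's methods, the authors trimmed reads with fastp, aligned them to hg38 with Bowtie2 2.2.5, removed duplicates with Picard and called peaks in each replicate with MACS3 3.0.1. Calling parameters, and any control library, are not given in the sources used here. The deposited lists give for the summit of each peak the fold (a ratio) and both −log10 p and −log10 q. The deposited score repeats the −log10 q and was not used.

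The fold is the pileup plus 1 over the control level plus 1, and p is a Poisson tail, so whole fragments and the control level were solved from both, to a relative tolerance of 3e-05. A solution was found for 99.978% of peaks in replicate 1 and 99.997% in replicate 2, after scaling the pileup of replicate 1 by 0.921, and the solution was checked on simulated data. Absolute depth is unknown. Percentiles used the peaks on chromosomes 1 to 22, X and Y of 1 list. Genes came from GENCODE release 44, and the annotation that the authors used is not given in the sources used here. Promoter words were counted in RefSeq windows, and 20-base words in hg38 (Python 3.11.15, numpy 2.4.6, pandas 2.3.3, scipy 1.17.1, matplotlib 3.10.9). No test was run, since both samples form 1 group.

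The genes, lists and alternatives were chosen with earlier results of these data known. Named genes were the 5 members, genes with a start within 3000 bp of theirs and, from the list of 22, the highest and lowest, those without a promoter peak in both replicates and the nearest to each member. Alternatives were a minimum −log10 q of 5, the top 10000 peaks by −log10 p, promoters within 1000 bp, starts of protein-coding transcripts, summits in place of edges, other overlaps and gene-end limits, the −log10 p in place of the fold, percentiles within promoter peaks and each replicate alone.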

Additional observations from a re-analysis of the deposited data

How the results depend on the processing

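Of 47 values recomputed under an alternative, 43 were kept and 4 moved. Kept means within a factor of 1.5 or, for percentiles, within 1 SD between replicates. With 2 replicates, a percentile from 1 replicate alone always lies within 1 SD of their mean, so it could not move. A wide SD also let a large change count as kept, as at CLP1 (30.7 against 56.9 ± 38.5). The tally therefore does not measure how stable the percentiles are. With the top 10000 peaks by −log10 p in each list, which leaves fewer peaks to reach a gene, 2 of the 5 genes (CPSF7 and PCF11) had a promoter peak in both replicates, against 5. The share of all protein-coding genes was not computed for these peaks, so whether 2 of 5 is low or usual is not known. With the same peaks 9 of the 22 other 3′ end processing genes had one, against 17. The median list percentile of the cleavage factor genes was 24.2, against 73.6 ± 22.9 (SD, n = 2). The 24.2 covers only the genes left, NUDT21, CPSF6, CPSF7 and PCF11 in replicate 1 and CPSF7 and PCF11 in replicate 2. They were ranked within the 10000 peaks alone, so the difference from 73.6 cannot show whether the genes drop in rank. The mean percentile of CPSF7 was 92.7 by −log10 p and 86.9 by fold. With each replicate alone the number of genes with a promoter peak was 5 and 5, that of the other list 18 and 20, and the median percentile 57.4 and 89.8. Starts within 500 bp of the RefSeq start, an alternative chosen after seeing the data, left the 3 values over the set the same but changed CLP1 in replicate 1. Its list percentile there was 31.6 against 84.1 and its fold 3.38 against 5.80, below the 3.64 of replicate 2, and its mean percentile was 30.7 against 56.9 ± 38.5. No paired analysis was possible because there is only 1 group, without a second to pair it with. Depth limits the folds that rest on fewest fragments, 13 to 20 at the CPSF7 intron, past CPSF7 and at CPSF6 in replicate 2, and absence from a list says only that no peak passed the caller's threshold.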
